A study of Mus musculus with 2 samples.

Results

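Proliferating leukocytes of the fatty, inflamed mouse liver were taken as barcodes that carried CD45 transcript together with transcripts of the cell division programme. A barcode stands for 1 droplet, usually 1 cell, and a UMI for 1 counted transcript molecule. A barcode was kept if it had 200 genes or more and no more than 10% of its UMIs from mitochondrial genes. Members had at least 1 UMI of Ptprc (the gene of CD45), at least 2 UMIs of Mki67 and Top2a together, and at least 4 UMIs over Mki67, Top2a, Birc5, Cdk1, Ccnb2, Pclaf and Ube2c. This gave 316 of 12576 kept barcodes, 150 of 5978 from the Trem2-/- library and 166 of 6598 from the Trem2+/+ library. Both groups were male C57BL/6J recipients that were lethally irradiated, given marrow of Trem2-/- or Trem2+/+ littermate donors, left to recover for 6 weeks and fed a methionine- and choline-deficient diet for 4 weeks, which induces steatohepatitis. Only the grafted marrow differed in genotype, so leukocytes that outlived irradiation keep the recipient's Trem2. Live (7AAD-) CD45+ liver cells of 4 mice per group were sorted and pooled in equal parts before droplet capture and sequencing from the 5' end. Since each group is 1 library, differences between them have no replicate check, and mice within a pool are not separated. All intervals are 95% intervals that cover counting error only, not the spread between cells or mice.

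A dividing cell first copies its DNA in S phase, with MCM helicases, polymerases and nucleotide-making enzymes, and then separates the copies in G2 and M phase with cyclin B, mitotic kinases, kinetochores and the spindle. Ki-67, encoded by Mki67, coats mitotic chromosomes, and topoisomerase II alpha, encoded by Top2a, untangles them. In liver, T cells expand on antigen and cytokine signals, type 1 conventional dendritic cells arise from precursors that can still divide, and macrophages are renewed both from monocytes and by division in place.

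The targeted gene followed the labels. Trem2 (ENSMUSG00000023992), a lipid-sensing receptor of macrophages, had 154 UMIs in kept barcodes of the Trem2-/- library, or 6.19 CPM (5.25 to 7.25), where CPM is a UMI count divided by all UMIs of the same cells and scaled so that libraries can be compared. The Trem2+/+ library had 5478 UMIs, or 204 CPM (199 to 209.6). Among members it had 3 and 123 UMIs, of which members carrying the macrophage gene C1qa held 3 and 88. The libraries shared 56 barcode sequences, but no barcode was a member in both. Members were deep cells, with medians of 13356.5 UMIs (769 to 40190) in the Trem2-/- library and 9275 in the Trem2+/+ library, against 3037 and 2908 in Ptprc barcodes with none of the 7 rule genes, called non-cycling here. Under 1000 UMIs stood 1 member of the Trem2-/- library and 12 of the Trem2+/+ library, so depth differed between the groups. Scrublet called 4 and 1 doublets (0.0669% and 0.0152%), so doublet calling had not worked and members can include doublets. The 5% of barcodes with the highest scores held 25 members (16.7%) of the Trem2-/- library and 10 (6.02%) of the Trem2+/+ library.

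The members were chosen by their UMIs of Ptprc and of the 7 cell cycle genes, so the levels of these genes are described without a test. Mki67 (ENSMUSG00000031004) stood at 743 CPM (706 to 782) in Trem2-/- members and 945 CPM (902 to 991) in Trem2+/+ members, and was seen in 143 of 150 and 162 of 166. Top2a (ENSMUSG00000020914) stood at 563 and 670 CPM. Ube2c, a ubiquitin enzyme of mitotic exit, stood at 492 and 657 CPM, while Pclaf, a partner of the replication clamp PCNA, stood at 446 and 431 CPM. Of the 7 genes, Pclaf alone had the higher level in the Trem2-/- library. At a minimum of the rule stood 15 and 25 members, and 33 and 32 barcodes lay just outside it, with medians of 4 and 3 UMIs of the 7 genes inside and outside. Between the members and the non-cycling cells lay 468 and 515 Ptprc barcodes.

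The proliferating share was close in the libraries. Members made up 2.51% (exact binomial interval 2.13 to 2.94) of kept Trem2-/- barcodes and 2.52% (2.15 to 2.92) of kept Trem2+/+ barcodes, which gave a log2 ratio of -0.0039 (-0.32 to 0.31). Of Ptprc barcodes they were 3.40% (2.88 to 3.97) and 3.51% (3.0 to 4.07). The interval of the ratio admits a difference either way, so equal shares are not shown. With every barcode thinned to 2000 UMIs, 55 of 4121 (1.33%) and 62 of 3936 (1.58%) met the rule, leaving out 1857 and 2662 shallower barcodes. With the class shares of both libraries set equal, the shares of Ptprc barcodes were 3.35% and 3.68%.

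Among classes with a lineage marker, T cells and type 1 dendritic cells held the most proliferating cells in both libraries. In the Trem2+/+ library more members had no lineage marker (37) than fell in the type 1 dendritic class. A member was put in the class of the single lineage marker it carried: Cd3e for T cells, Cd79a for B cells, C1qa for macrophages, Xcr1 or Clec9a for type 1 conventional dendritic cells, and Siglech for plasmacytoid dendritic cells, with Ly6c2, which monocytes and some lymphocytes carry, used last. The Cd3e class held 46 of 150 members (30.7%, 23.4 to 38.7) from Trem2-/- marrow recipients and 41 of 166 (24.7%, 18.3 to 32.0) from Trem2+/+ marrow recipients. The Xcr1/Clec9a class held 42 (28.0%, 21.0 to 35.9) and 32 (19.3%, 13.6 to 26.1), and the C1qa class 23 (15.3%) and 26 (15.7%). The log2 ratios of these shares had intervals that included 0. Few members fell in the Cd79a, Siglech and Ly6c2 classes, with 1 and 1, 1 and 0, and 3 and 7 members. Members with more than 1 lineage numbered 16 and 22, most often C1qa with Xcr1 or Clec9a, in 7 and 5.

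Members with none of the 6 marker sets, called unmarked here, were the one class whose share had a ratio with an interval without 0. They were 18 of 150 Trem2-/- members (12%, 7.27 to 18.3) and 37 of 166 Trem2+/+ members (22.3%, 16.2 to 29.4), with a log2 ratio of -0.89 (-1.64 to -0.15). Their median depth was 11888 UMIs in the Trem2-/- library and 4278 in the Trem2+/+ library, and a shallow cell can miss its marker. After thinning to 2000 UMIs the ratio was -0.13 (-0.89 to 0.63), inside counting error. Among unmarked members, 13 of 18 and 17 of 37 had at least 2 UMIs of type 2 conventional dendritic markers, and 8 of 18 and 14 of 37 of monocyte markers. As many UMIs of lipid-associated macrophage markers were in 12 of 18 and 17 of 37, and of progenitor markers in 8 of 18 and 13 of 37. The type 2 dendritic minimum was also met by 34 of 42 Xcr1/Clec9a and 21 of 23 C1qa members of the Trem2-/- library, so it does not name the unmarked cells. Mature dendritic cell markers were found in 5 of 18 and 1 of 37 (3.36, 0.37 to 6.35) and endothelial markers in 4 of 18 and 1 of 37. Their part in the values of unmarked members was not tested.

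The class labels were set beside wider marker sets. The T cell, type 1 dendritic, macrophage and monocyte sets include the class gene itself. A member of the class thus already had at least 1 of the 2 UMIs asked for, and high counts were partly set in advance. At least 2 UMIs of T cell markers were found in 44 of 46 and 39 of 41 Cd3e members, of type 1 dendritic markers in 41 of 42 and 32 of 32 Xcr1/Clec9a members, and of macrophage markers in 22 of 23 and 26 of 26 C1qa members. Of the Ly6c2 members 3 of 3 and 5 of 7 had as many UMIs of monocyte markers, and 1 of 3 and 6 of 7 of NK cell and ILC1 markers, so that class is called by its marker only. Free RNA can give a UMI to a cell that lacks the gene. Cd3e was seen in 34.7% and 30.7% of all members, and in 0.952% of 210 and 1.67% of 180 B cells. The B cells were Ptprc barcodes with at least 2 UMIs of Ms4a1 and no UMI of Cd3d or Cd3g, a choice made after seeing the data. Leaving out barcodes with other CD3 genes can lower their Cd3e share in advance, so that share is no full measure of free RNA. For C1qa the shares were 23.3% and 23.5% of members against 5.24% and 7.22% of B cells. For Xcr1 or Clec9a they were 36.0% and 27.1% against 1.90% and 0.556%. The B cells had medians of 2256 and 2018 UMIs, and thinned to 1000 UMIs C1qa was in 11.4% and 18.2% of members and in 2.46% and 3.43% of B cells. The members as a whole had 219 and 222 UMIs of endothelial markers, 18 and 38 of hepatocyte markers, 7 and 10 of stellate markers, and 4 and 0 of erythroid markers. Among Cd3e members, macrophage markers held 4 and 17 UMIs and type 1 dendritic markers 4 and 15.

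**Figure D1:**
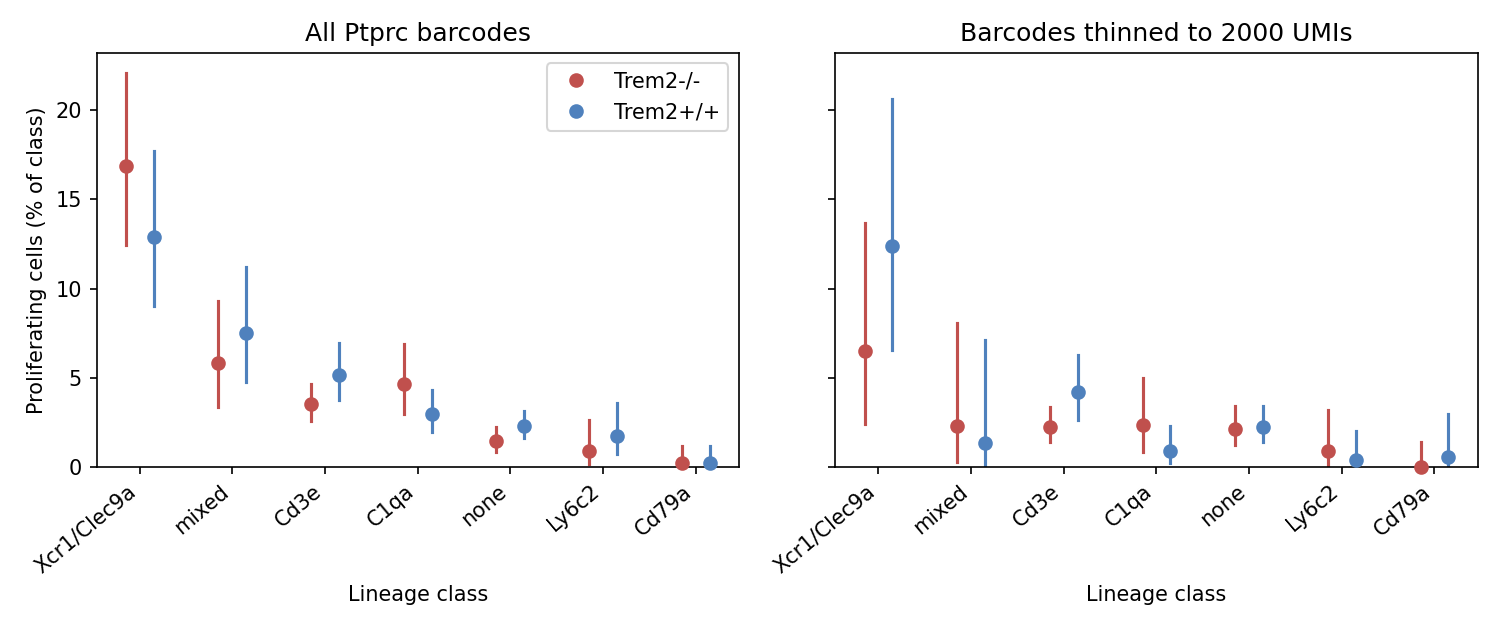
Proliferating cells as a percentage of each lineage class of Ptprc barcodes (y axis) for the 2 libraries, with exact binomial intervals. The left panel uses all barcodes and the right panel barcodes thinned to 2000 UMIs. The Xcr1/Clec9a class stands highest on the left at 16.9% and 12.9%, and its order between the libraries turns on the right, at 6.52% and 12.4%.

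Type 1 dendritic cells had the highest proliferating share of any class. Of Xcr1/Clec9a barcodes with Ptprc, 42 of 249 (16.9%, 12.4 to 22.1) were Trem2-/- members and 32 of 248 (12.9%, 9.0 to 17.7) Trem2+/+ members. In the Cd3e class the shares were 46 of 1306 (3.52%, 2.59 to 4.67) and 41 of 793 (5.17%, 3.74 to 6.95), and in the C1qa class 23 of 496 (4.64%, 2.96 to 6.88) and 26 of 877 (2.96%, 1.95 to 4.31). In the Cd79a class only 1 of 468 (0.214%) and 1 of 477 (0.210%) were members. The Xcr1/Clec9a share was 4.79-fold (3.22 to 7.11) the Cd3e share in the Trem2-/- library and 2.50-fold (1.61 to 3.87) in the Trem2+/+ library. It was 3.64-fold and 4.35-fold the C1qa share. Xcr1/Clec9a members were also the deepest class, with medians of 17223 and 17274 UMIs. Thinned to 2000 UMIs the class still led, with 6 of 92 (6.52%) and 12 of 97 (12.4%), against 21 of 945 (2.22%) and 22 of 524 (4.2%) for Cd3e.

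Between the libraries no class with members in both differed in its proliferating share beyond counting error. The log2 ratio was 0.39 (-0.23 to 1.0) for Xcr1/Clec9a, -0.55 (-1.15 to 0.04) for Cd3e, 0.65 (-0.15 to 1.44) for C1qa and -0.67 (-1.48 to 0.13) for unmarked cells. For Xcr1/Clec9a the direction turned to -0.92 (-2.28 to 0.43) after thinning. T cells filled 29.6% of Ptprc barcodes in the Trem2-/- library and 16.8% in the Trem2+/+ library, and C1qa cells 11.2% and 18.5%.

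CD8 cells were the largest subset of the dividing T cells. Cd8a or Cd8b1 without Cd4 marked 19 of 46 and 22 of 41 Cd3e members, Cd4 without Cd8 marked 15 and 9, both marked 6 and 0, and neither marked 6 and 10. Foxp3, which specifies regulatory T cells, was seen in 9 and 4 members. Of Foxp3-marked T cells 9 of 55 (16.4%, 7.77 to 28.8) and 4 of 24 (16.7%, 4.74 to 37.4) were members. A Foxp3 UMI is found more often in deeper cells, and Cd3e members had medians of 11313 and 6866 UMIs against 3498.5 and 3449 in non-cycling Cd3e cells. No thinned value is given for this share. For CD8-marked cells the shares were 19 of 652 (2.91%) and 22 of 446 (4.93%), and for CD4-marked cells 15 of 315 (4.76%) and 9 of 107 (8.41%, 3.92 to 15.4), the last overlapping the interval for Foxp3. The ratios between the libraries had intervals that included 0 in all 3 subsets. Among C1qa members, at least 2 UMIs of Kupffer cell markers, which mark resident liver macrophages, were found in 11 of 23 (47.8%) and 15 of 26 (57.7%), a log2 ratio of -0.27 (-1.05 to 0.51). Members were 11 of 226 (4.87%) and 15 of 320 (4.69%) C1qa cells with these markers. Among C1qa cells without them they were 12 of 270 (4.44%) and 11 of 557 (1.97%), a ratio of 1.17 (0.0087 to 2.33) with a lower bound next to 0.

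Dividing cells of 3 lineages stood far above their non-cycling classes in mitotic and replication genes. Mitotic genes of the rule chose the members, so this is a description. In Cd3e members of the Trem2-/- and Trem2+/+ libraries the genes of mitotic cyclins and kinases summed to 1444 and 1744 CPM, against 54.3 and 43.5 CPM in non-cycling Cd3e cells. The replication fork genes summed to 2417 and 2114 CPM against 494 and 473. In Xcr1/Clec9a members the mitotic sums were 964 and 1388 CPM against 23.8 and 33.5, and the fork sums 1693 and 1413 CPM against 408 and 369. In C1qa members the mitotic sums were 918 and 1145 CPM against 29.8 and 25.1, and the fork sums 1545 and 1251 CPM against 335 and 332. The order was the same in all 3 classes, with a wider gap for mitotic than for replication genes. Among all genes of at least 20 CPM, 24.3% and 30.6% were at least 1.5-fold higher in Cd3e members, 20.6% and 22.8% in Xcr1/Clec9a members and 22.5% and 19.3% in C1qa members, and nothing is read from these shares.

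Named by a rule of size, the genes that stood highest over non-cycling T cells were mitotic, histone and replication genes. Cenpf, a kinetochore protein, was at 302 and 376 CPM in Cd3e members and at 0 and 0.422 CPM in non-cycling Cd3e cells. Ccna2 (cyclin A2) was at 268 and 307 CPM against 1.0 and 0. The nucleotide reductase subunit gene Rrm2 was at 325 and 296 CPM against 4.76 and 3.80, and the tubulin-destabilising gene Stmn1 at 1117 and 1273 CPM against 17.8 and 16.5. Stmn1 and the chromatin gene Hmgb2 were also on the higher side in Xcr1/Clec9a and C1qa members.

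The genes that stood lowest in dividing T cells included keepers of rest and survival. Bcl2, which blocks cell death, was at 39.0 and 34.6 CPM in Cd3e members against 255 and 285 CPM in non-cycling Cd3e cells, log2 ratios of -2.71 and -3.04. Il7r, the receptor for the survival cytokine interleukin-7, was at 124 and 69.2 CPM against 495 and 510.5 (-2.00 and -2.88). The antiproliferative genes Btg1 (-1.89 and -1.99) and Btg2 (-1.79 and -1.73) and the glucose uptake inhibitor Txnip (-2.48 and -2.31) also stood lower. Of 16 measured naive and memory T cell genes, 13 were at least 1.5-fold lower in each library, against 18.4% and 17.1% of all genes. Lyz2, a myeloid gene, was lowest at -4.56 and -4.33. It stood at 481 and 520 CPM in non-cycling Cd3e cells, which as T cells should lack it.

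Several named genes stood lower in dividing dendritic cells and macrophages than in their non-cycling classes. In Xcr1/Clec9a members the neutrophil chemokine gene Cxcl2 was at 2.77 and 4.16 CPM against 202 and 461, and the cytokine gene Il1b at 150 and 131 CPM against 880 and 838. The neutrophil genes S100a8 and S100a9 were on the same side, at 5.54 and 2.08, and 5.54 and 4.16 CPM, against 301 and 451, and 341 and 541 CPM. The part of neutrophil RNA in the non-cycling class was not tested. Interferon-response genes were at least 1.5-fold lower in 9 of 13 and 11 of 13 cases, where 12.4% and 12.4% of all genes were. In C1qa members the same list had 1 of 22 and 2 of 20 genes that much lower and 6 and 5 higher, with medians of 0.17 and 0.14. In C1qa members Spp1 (osteopontin) was at 17.7 and 32.2 CPM against 225 and 374, log2 ratios of -3.67 and -3.54. The fatty acid carrier Fabp5 stood at 185 and 167 CPM against 388 and 1064. Lipid-associated macrophage genes were at least 1.5-fold lower in 8 of 18 and 15 of 18 cases, against 11.4% and 11.6% of all genes.

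**Figure D2:**
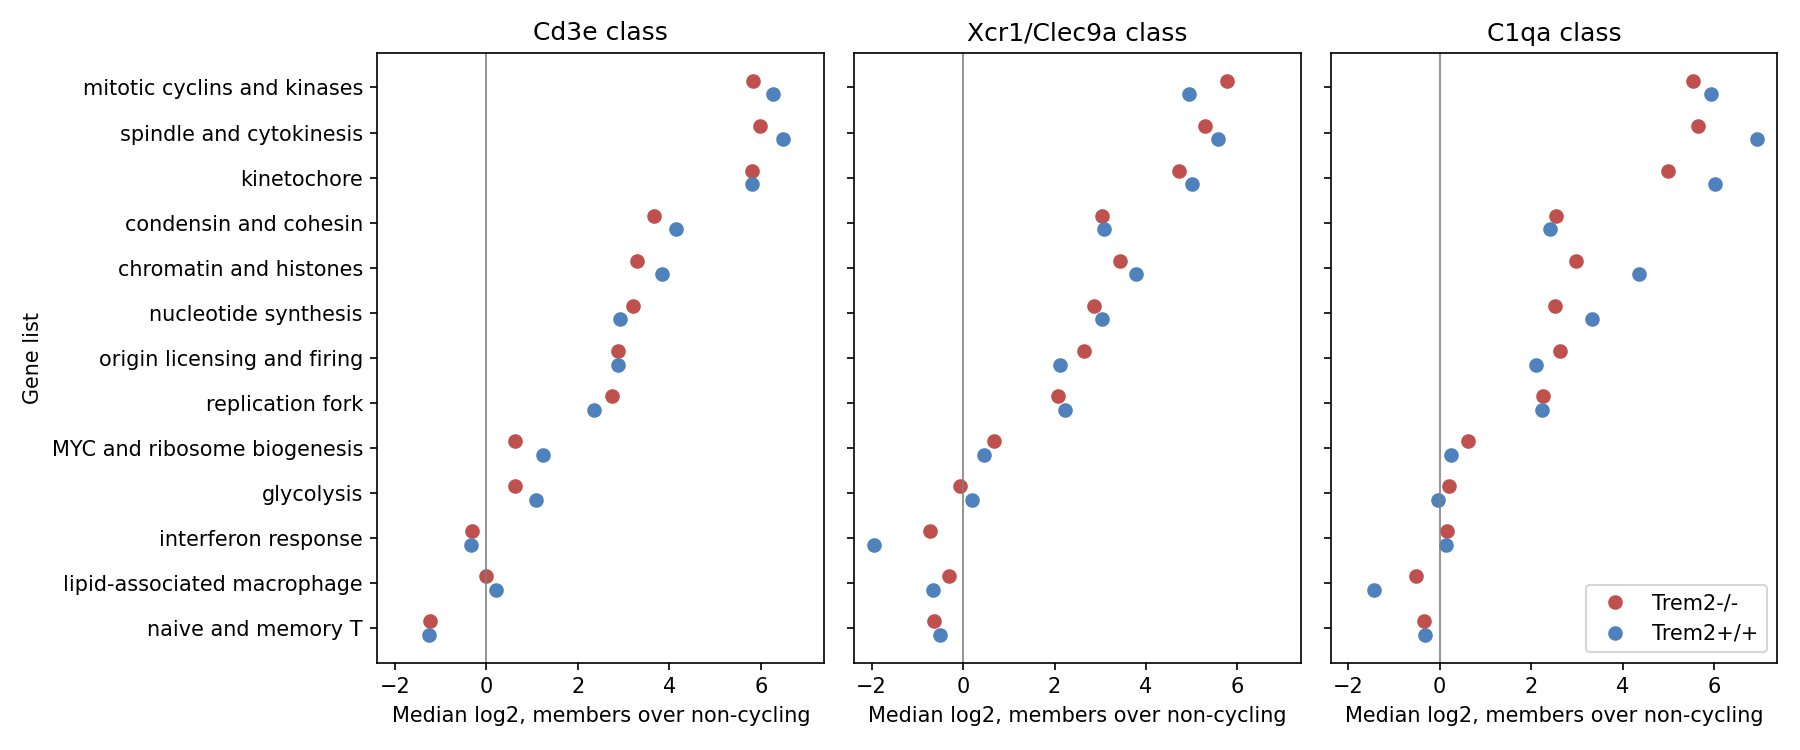
Median log2 ratio of members to non-cycling cells of the same class (x axis) for the genes of each list with a mean of at least 20 CPM (y axis), in 3 lineage classes and 2 libraries. Spindle and cytokinesis genes sit between 5.29 and 6.94, replication fork genes between 2.07 and 2.74, and in C1qa cells the lipid-associated macrophage list sits below 0 at -0.51 and -1.44.

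Summed over members, UMIs of the Trem2-/- library leaned to S genes, and those of the Trem2+/+ library to G2/M genes. Over all members, 30 S genes outside the rule summed to 3300.4 CPM (3222 to 3381) for Trem2-/- and 2866 CPM (2790.1 to 2944) for Trem2+/+, which is a log2 ratio of 0.20 (0.15 to 0.26). The 30 G2/M genes summed to 3023 CPM (2948 to 3100) and 3764 CPM (3676 to 3853), a ratio of -0.32 (-0.37 to -0.27). The difference in the log2 ratio of S to G2/M was 0.52, and 0.63 without the deepest member of each class. Among single genes the cyclin B gene Ccnb1 (ENSMUSG00000041431) was at 81.6 and 126 CPM (-0.63, -0.92 to -0.33), and the replication gene Cdc45 at 46.0 and 29.4 CPM (0.65, 0.15 to 1.15). Helicase subunits Mcm3 and Mcm6 were at 189 and 148, and 210 and 164 CPM (0.35 for each). Of 30 G2/M genes 28 were below 0 and 16 had intervals below 0, with 1 at least 1.5-fold lower. Of 29 measured S genes 24 were above 0 and 2 were at least 1.5-fold higher. Over all 6206 genes of at least 20 CPM, 3.46% were that much higher and 2.53% lower, with a median near 0, so these are small shifts shared by many genes of a list. The rule asks for a fixed number of UMIs of largely mitotic genes, and Trem2+/+ members were shallower. Members at a minimum of the rule held 456 CPM of its 7 genes in the Trem2-/- library and 1366 CPM in the Trem2+/+ library. The part of depth and of the rule in the lean was not tested.

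The lean appeared in 3 of the 4 larger classes and its size differed among them. In Xcr1/Clec9a members S genes stood at 0.24 (0.14 to 0.34) and G2/M genes at -0.60 (-0.69 to -0.50). In C1qa members they stood at 0.43 (0.26 to 0.59) and -0.38 (-0.54 to -0.23). In Cd3e members S genes stood at 0.041 (-0.043 to 0.12) and G2/M genes at -0.31 (-0.39 to -0.23), and the difference of 0.35 was 0.030 without the barcodes with the highest doublet scores. Unmarked members went the other way, with S genes at -0.47 (-0.65 to -0.29) and G2/M genes at 0.020 (-0.14 to 0.18). Counted by cell, the difference was not beyond counting error. Thinned to 1000 UMIs, S genes exceeded G2/M genes in 68 of 149 members (45.6%, 37.5 to 54.0) of the Trem2-/- library and in 56 of 154 (36.4%, 28.8 to 44.5) of the Trem2+/+ library, and 40 members of each library lay within 1 UMI of the dividing line.

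**Figure D3:**
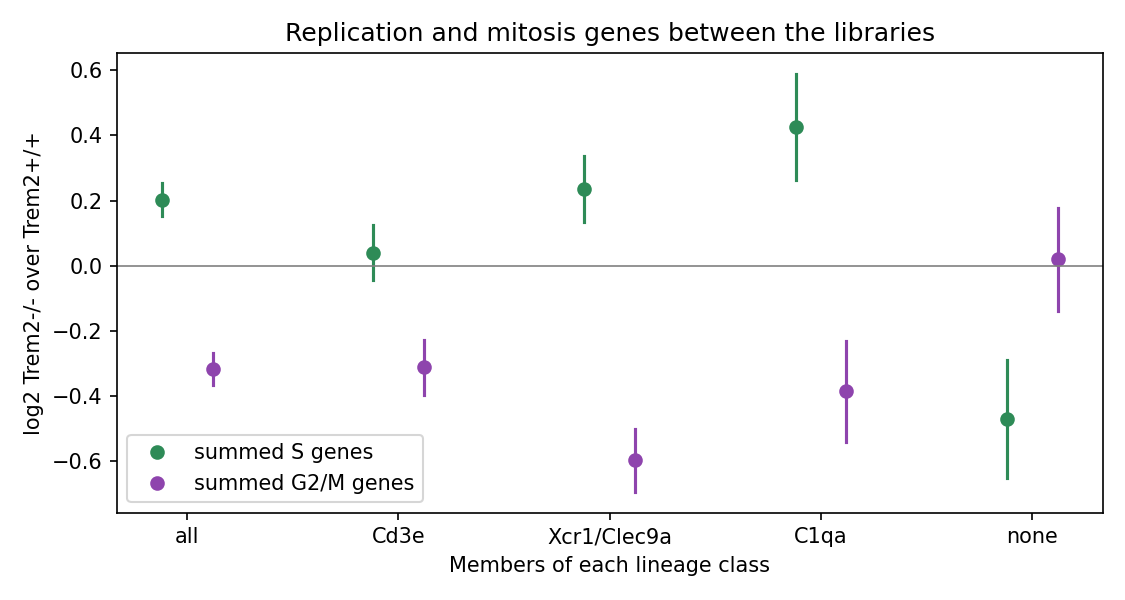
Log2 ratio of the Trem2-/- to the Trem2+/+ library (y axis) for summed S genes and summed G2/M genes in all members and in 4 lineage classes (x axis; "none" is the unmarked class), with exact conditional binomial intervals. S genes lie above G2/M genes everywhere but in the unmarked class, where they stand at -0.47 and 0.020.

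The start regions of these 2 gene lists differed in how often they held motifs of each phase. E2F factors drive genes of S phase through sites such as TTTGGCGC, TTTCGCGC or GCGGGAA, and the complex that includes B-MYB acts on mitotic genes through the CHR element TTTGAA, often beside CCAAT boxes bound by NF-Y. RefSeq windows from 250 bases before to 50 after each start (build GRCm38.p6) were matched by symbol for 26 of the 30 genes of each list and searched on both strands, where TTTGGCGC and TTTCGCGC can overlap. CHR was in 22 of 28 windows (78.6%) of G2/M genes and 4 of 31 (12.9%) of S genes, against 17.9% of all 32851 windows. An E2F motif was in 18 of 31 windows (58.1%) of S genes and 0 of 28 of G2/M genes, against 5.33% of all. Neither CHR nor E2F was in 9 windows of S genes, 6 of G2/M genes and 25404 of all. CCAAT was in 78.6% of G2/M, 58.1% of S and 37.4% of all windows. The motif sets had first been TTTGAA or TTTAAA, and TTTGGCGC or TTTCGCGC, and were changed after a first look. With those sets CHR was in 85.7% of G2/M, 25.8% of S and 27.6% of all windows, and E2F in 0, 32.3% and 0.813%. A match is a description of the letters and no measure of binding. The 150 bases before the start are shown for the pair of genes of each list with the most UMIs in members among those with the motif there, with matched motifs on either strand in capitals. Kif11, a spindle motor, lies at chr19:37376232-37376381 on the + strand, and Prc1, a spindle midzone protein, at chr7:80294326-80294475 on the + strand. Rrm1, the large subunit of ribonucleotide reductase, lies at chr7:102441545-102441694 on the + strand, and Mcm6 at chr1:128359706-128359855 on the - strand.
Kif11: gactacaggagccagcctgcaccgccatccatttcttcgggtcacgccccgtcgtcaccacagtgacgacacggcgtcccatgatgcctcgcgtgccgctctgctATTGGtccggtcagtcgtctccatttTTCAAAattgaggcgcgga
Prc1: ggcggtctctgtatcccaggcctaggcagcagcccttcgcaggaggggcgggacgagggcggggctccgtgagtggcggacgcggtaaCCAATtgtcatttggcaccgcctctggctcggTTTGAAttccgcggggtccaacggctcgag
Rrm1: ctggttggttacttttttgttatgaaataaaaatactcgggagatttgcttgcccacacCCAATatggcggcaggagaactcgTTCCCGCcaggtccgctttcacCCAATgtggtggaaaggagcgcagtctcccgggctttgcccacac
Mcm6: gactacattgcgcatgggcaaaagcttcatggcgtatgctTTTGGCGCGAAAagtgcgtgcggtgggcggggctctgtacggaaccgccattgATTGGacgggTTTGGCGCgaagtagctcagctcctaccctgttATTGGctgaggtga
The mitotic pair stood at 158 and 188 CPM (Kif11, -0.25, -0.48 to -0.03) and 139 and 156 CPM (Prc1, -0.16, -0.40 to 0.08). The S pair stood at 196 and 206 CPM (Rrm1, -0.07, -0.28 to 0.13) and 210 and 164 CPM (Mcm6, 0.35, 0.14 to 0.57).

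Over all members, 15 genes were eligible on the higher side and 19 on the lower side by the size rule, which asked for 100 CPM on average, 100 UMIs in all and a 1.5-fold ratio whose interval left out 0. Highest among T cell genes was Ctla4 (ENSMUSG00000026011), an inhibitory receptor, at 186 CPM (168 to 206) against 37.4 CPM (29.1 to 47.2), with a log2 ratio of 2.32 (1.95 to 2.71), seen in 46 and 22 members. The T cell signalling genes Sh2d2a (136 and 66.8 CPM, 1.03) and Cd3g (282 and 153 CPM, 0.88) and the granzyme gene Gzma (583 and 324 CPM, 0.85) also stood higher. Gzma gave 0.088 as a mean over cells and 1.57 with the minimums of the rule doubled. T cell markers as a list had 1996 UMIs in members of the Trem2-/- library and 1170 in those of the Trem2+/+ library, with at least 2 UMIs in 51 and 53 members. The survival gene Bcl2a1d was at 152 and 71.0 CPM (1.10) and was seen in 95 and 65 members, and the chemokine gene Cxcl2 at 549.9 and 312 CPM (0.82), which was 0.054 with the minimums doubled. Spp1 (183 and 35.3 CPM, 2.38) rested on a single Trem2-/- member with 55% of its UMIs. The neutrophil gene S100a9 (198 and 73.2 CPM, 1.44) turned to -0.81 as a mean over cells. Neutrophil markers had 716 and 427 UMIs, with at least 2 UMIs in 7 and 9 members, and their part in it was not tested.

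The genes that stood lower in all Trem2-/- members included macrophage transcripts. The apolipoprotein gene Apoe was at 1533 and 2721 CPM (-0.83, -0.89 to -0.76), Cd5l, secreted by Kupffer cells, at 148 and 304 CPM (-1.04), and the selenium carrier gene Selenop at 222 and 384 CPM (-0.79). The others were the metallothionein gene Mt1 (-1.04), the chemokine gene Xcl1 (-0.99), Ly6c2 of monocytes and some lymphocytes (-0.83), Cd300c2 (-0.82) and Gngt2 (-0.87). Macrophage markers had 3222 UMIs (1593 CPM) in Trem2-/- members and 4431 UMIs (2367 CPM) in Trem2+/+ members, with at least 2 UMIs in 45 and 57 members. With classes weighted equally the ratios were smaller, at -0.33 for Apoe, -0.29 for Cd5l and -0.19 for Selenop. That weighting takes only the Cd3e, Xcr1/Clec9a, C1qa and unmarked classes. The part of the class mix in these ratios was not tested.

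Dividing T cells of the Trem2-/- library had higher levels of several inhibitory receptor and regulator genes. No class reached the 50 members per library that had been set for ranking genes, so within classes only list genes are given. Of 13 genes of the inhibitory receptor and regulator list, 7 were at least 1.5-fold higher in Trem2-/- Cd3e members and 0 lower. The median log2 ratio was 0.73. The list also holds genes of transcription factors (Tox, Tox2, Nr4a1, Nr4a2 and Nr4a3) and of the enzyme Entpd1. Of its receptor genes, only Ctla4, Tigit and Lag3 passed 1.5-fold. Over all genes 11.2% were that much higher and 12.1% lower, with a median of -0.01. Ctla4 was at 522 CPM (465 to 584) and 140 CPM (108 to 179), a ratio of 1.89 (1.5 to 2.30), and was seen in 33 of 46 and 18 of 41 members. Tigit, which restrains T cells and NK cells, was at 288 and 86.4 CPM (1.74, 1.23 to 2.27), and Lag3, a receptor for MHC class II, at 122 and 28.1 CPM (2.12, 1.26 to 3.10). Tox, a transcription factor of chronically stimulated T cells, was at 193 and 84.3 CPM (1.20, 0.66 to 1.76). The ATP-degrading enzyme gene Entpd1 stood at 1.80 and Tox2 at 1.48, on 7 and 9 UMIs in the Trem2+/+ library. Pdcd1, which encodes PD-1, was at 149 and 102 CPM (0.55, 0.03 to 1.10), and Havcr2 (0.21), Cd160 (-0.38) and Cd244a (-0.35) had intervals that included 0.

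The list, with Ctla4 and Tigit in it, also stood higher when regulatory T cells were left out. Without members with a Foxp3 UMI, 37 in each library, the list median was 1.34, with Ctla4 at 290.3 and 87.8 CPM and Tigit at 244 and 49.8 CPM. In CD8-marked members Ctla4 was at 276 CPM (211 to 353) and 33.4 CPM (16.0 to 61.3), Tox at 271 and 107 CPM and Pdcd1 at 258 and 103 CPM, in 19 and 22 members. In CD4-marked members, 15 and 9, Ctla4 was at 648 CPM (544 to 765) and 469 CPM (335 to 639), with intervals that overlap, and Pdcd1 was at 83.9 and 152 CPM. Non-cycling Cd3e cells leaned the same way by less, with a median of 0.60 over 12 genes and 6 of them at least 1.5-fold higher, where 3.77% of all genes were higher and 0.873% lower. There Ctla4 was at 325 and 200.4 CPM (0.70, 0.55 to 0.85). Whether the ratio differs between dividing and non-cycling T cells was not tested.

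**Figure D4:**
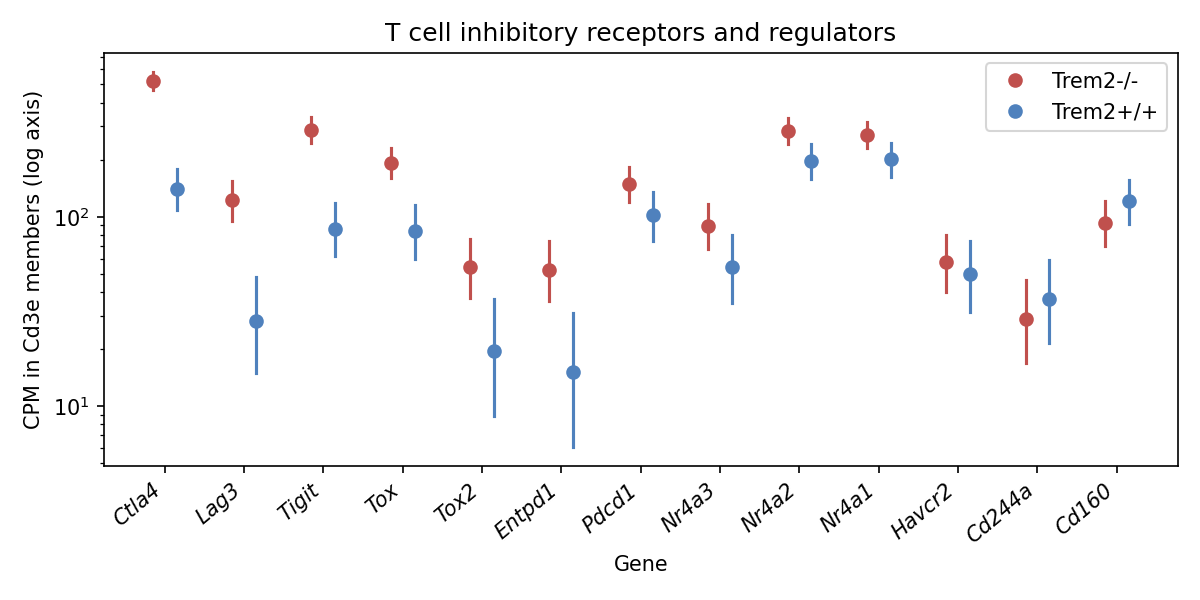
Level of each gene of the inhibitory receptor and regulator list (x axis) in Cd3e members of the 2 libraries, in CPM on a log axis (y axis), with exact Poisson intervals. Ctla4, Lag3, Tigit, Tox, Tox2, Entpd1 and Nr4a2 have intervals that do not overlap, and Cd160 and Cd244a stand slightly lower in the Trem2-/- library.

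Costimulatory and cytokine receptor genes were higher too, whereas killing genes were mixed. Of 12 measured receptors 9 were at least 1.5-fold higher and 2 lower in Trem2-/- Cd3e members, with a median of 0.80 that became 0.26 without the 20 CPM minimum. Over all genes 11.2% were that much higher and 12.1% lower. In non-cycling Cd3e cells 4 of 16 were higher and 0 lower, with a median of 0.29, where 3.77% of all genes were higher and 0.873% lower. The interleukin-2 receptor beta gene Il2rb was at 427 and 251 CPM (0.77, 0.45 to 1.10), Icos at 137 and 69.2 CPM (0.99), and Tnfrsf4, which encodes OX40, at 163 and 56.2 CPM (1.53), with 65% of its Trem2+/+ UMIs in 1 cell. Il2ra stood at 69.5 and 173 CPM (-1.31), but 69% of its Trem2+/+ UMIs lay in 1 cell and the mean over cells gave 0.76. Gzmb, the cell-killing protease granzyme B, was lower at 375 and 644 CPM (-0.78, -1.04 to -0.53), while Gzma was at 1471 and 992 CPM (0.57, 0.40 to 0.74). Ifng, the interferon-gamma gene, was at 139 and 69.2 CPM (1.01, 0.40 to 1.64). Ccl5 was at 4256 and 4110.4 CPM (0.050, -0.036 to 0.14).

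Growth genes of dividing T cells depended on a single cell. MYC and ribosome biogenesis genes had a median of -0.48, with 9 of 21 at least 1.5-fold lower in the Trem2-/- library and 0 higher. Over all genes 12.1% were that much lower and 11.2% higher. Among the lower ones were the nucleolin gene Ncl (788 and 1286 CPM, -0.71) and the chaperonin gene Hspd1 (202 and 495 CPM, -1.29). One Trem2+/+ member of 63979 UMIs held 37.3% of that library's UMIs of the list, and the median was -0.15 without the deepest member of each class and -0.09 as a mean over cells. MHC class II genes stood at a median of -3.87, but 1387 of 1481 Trem2+/+ UMIs (93.7%) lay in 1 barcode of 27244 UMIs. Without the barcodes with the highest doublet scores that median was 0.29.

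In dividing type 1 dendritic cells the G2/M genes were lower almost throughout. Of 30 G2/M genes 29 were below 0 and 16 were at least 1.5-fold lower in Trem2-/- Xcr1/Clec9a members, with a median of -0.64, where 9.5% of all genes were that much lower and 8.49% higher. Ccnb1 was at 63.7 and 129 CPM (-1.01, -1.60 to -0.44), the mitotic activator gene Cdc20 at 74.8 and 137 CPM (-0.87), the motor gene Kif4 at 31.9 and 93.5 CPM (-1.55) and the spindle checkpoint kinase gene Ttk at 15.2 and 45.7 CPM (-1.58). Prc1, at 116 and 110.1 CPM (0.08), was the single one above 0. Cenpf stood at -0.66 and at -0.026 as a mean over cells. The member with the most G2/M UMIs held 7.5% of the Trem2-/- and 10.9% of the Trem2+/+ sum.

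The cyclin D genes were higher in the same cells. They relay growth signals at the start of the cycle and stood at 272 and 150 CPM for Ccnd1 (0.86, 0.46 to 1.27), 65.1 and 31.2 CPM for Ccnd2 (1.06, 0.20 to 2.01) and 233 and 164 CPM for Ccnd3 (0.50, 0.11 to 0.91). Of the 12 measured G1/S cyclin and E2F genes 2 were at least 1.5-fold higher and 1 lower, with a median of 0.32. The origin licensing gene Cdt1 was at 74.8 and 37.4 CPM (1.0) and the polymerase delta gene Pold1 at 65.1 and 27.0 CPM (1.27). Of 27 measured S genes 22 were above 0 and 3 at least 1.5-fold higher, a share near that of all genes, with a median of 0.21. Lineage genes were close, with Xcr1 at 285 and 266 CPM (0.10, -0.22 to 0.43), Clec9a at 289.6 and 307 CPM (-0.09) and Flt3, the receptor for their growth factor, at 215 and 247 CPM (-0.20, -0.56 to 0.15). MHC class II genes had a median of -0.01, with 0 of 10 past 1.5-fold. Isg15 (84.5 and 18.7 CPM, 2.18) had 66% of its Trem2-/- UMIs in 1 cell.

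Dividing macrophages stood higher in replication genes in the Trem2-/- library, on 23 and 26 members. In C1qa members 11 of 28 S genes were at least 1.5-fold higher and 0 lower in the Trem2-/- library, with a median of 0.46, and 11 of 28 G2/M genes were lower and 2 higher, with a median of -0.31. Over all genes 22.7% were that much higher and 14% lower, with a median of 0.10. As a mean over cells the S median was -0.044. Mcm6 was at 172 and 54.7 CPM (1.65, 0.80 to 2.57) and Mcm5 at 137 and 51.5 CPM (1.41), while the mitotic kinase gene Aurkb was at 35.3 and 142 CPM (-2.00, -3.30 to -0.90) and the centromere histone gene Cenpa at 110.3 and 277 CPM (-1.33). Neutrophil markers had 267 UMIs in C1qa members of the Trem2-/- library and 17 in those of the Trem2+/+ library, with at least 2 UMIs in 3 and 3 members. Endothelial markers had 33 and 114 UMIs, with at least 2 UMIs in 5 and 6 members. Their part in these values was not tested.

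Some Kupffer cell genes were higher among these macrophages, and among non-cycling ones too. Of 8 measured list genes 3 were at least 1.5-fold higher and 0 lower in members, with a median of 0.44. Over all genes 22.7% were that much higher and 14% lower. In non-cycling C1qa cells 5 of 9 were higher and 1 lower, with a median of 0.60. Clec4f, a lectin of Kupffer cells, was at 631 CPM (532 to 743) and 219 CPM (170 to 277), a ratio of 1.53, seen in 7 and 9 members. Vsig4, a complement receptor, was at 521 and 167 CPM (1.64), while Cd5l was at 1112 and 1348 CPM (-0.28). A UMI of the lipid-associated genes Gpnmb or Spp1 was seen in 5 of 23 (21.7%) and 12 of 26 (46.2%) members, a log2 ratio of -1.09 (-2.36 to 0.18) that included 0. Cd9, a tetraspanin of lipid-laden macrophages, was at 137 and 386 CPM (-1.50, -2.12 to -0.92). Fabp4 had 0 and 33 UMIs. Over 17 measured lipid-associated genes the median was -0.10 with 3 at least 1.5-fold lower, and single cells held 77% and 85% of Gpnmb UMIs. Without the deepest members the median was -0.76, and without the highest doublet scores 0.10. Non-cycling C1qa cells had a median of -0.98, with 15 of 19 at least 1.5-fold lower, where 2.27% of all genes were lower and 5.87% higher. The difference between dividing and non-cycling macrophages was not tested.

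Unmarked members, 18 and 37, carried fewer replication transcripts in the Trem2-/- library. Of 27 S genes 12 were at least 1.5-fold lower and 4 higher, with a median of -0.42, against 21.2% and 19.7% of all genes. Rrm2 was at 82.3 and 211 CPM (-1.36, -2.27 to -0.52) and the thymidine kinase gene Tk1 at 41.1 and 159 CPM (-1.95). Cytotoxic genes had a median of 0.83 with 9 of 13 higher, but 3 members held 59.6% and 42.5% of their UMIs. The motor gene Kif11 was at 200.5 and 172 CPM (0.22, -0.45 to 0.89).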

How the data were processed

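Droplet 5' single-cell libraries of sorted CD45+ liver cells were deposited as raw UMI counts per gene and barcode for 32285 genes, which the authors made, per the file headers, in Cell Ranger 5.0.1. The build was mm10 (submitters' processing notes). Feature and barcode files give the names. Groups came from the genotype labels. The members, lists and markers were chosen with earlier results of these data known.

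Counts were summed per library and class with NumPy 2.4.6, SciPy 1.17.1 and pandas 2.3.3 and divided by the class total (CPM). CPM have exact Poisson intervals, shares exact binomial (Clopper-Pearson) intervals, ratios of shares large-sample intervals, and ratios of counts exact conditional binomial intervals, all at 95%. A gene at 0 was set to a bound of 3 UMIs per library within list medians and counts. List genes needed a mean of 20 CPM, and "higher" or "lower" meant at least 1.5-fold. Genes were named as the 8 highest and 8 lowest over all members, and the 12 highest and 8 lowest against non-cycling cells by the ratio nearer to 0, with mitochondrial, ribosomal, receptor segment, sex-linked, hepatocyte and unnamed genes left out. List genes could be named at any size. Values within classes of under 50 members were added to the planned comparison over all members, as descriptions. No test between groups was made. Intervals were tried on simulated independent Poisson counts, which is the form they assume. That trial cannot check them for UMIs clumped in single cells. Doublets were scored with Scrublet in Scanpy 1.11.5 (expected rate 0.06) and not removed. The total counts of the libraries were 25288032 and 27238586 UMIs. Alternatives were the cell filters, the Ptprc requirement, the rule minimums, depth, doublet scores, weighting and the total used.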

Additional observations from a re-analysis of the deposited data

Results flagged for a closer look

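Summed S genes pointed in different directions in different lineages of proliferating cells, a difference that was not tested. Their log2 ratio of the Trem2-/- to the Trem2+/+ library was 0.24 in Xcr1/Clec9a members and 0.43 in C1qa members, but -0.47 in unmarked members, with 1 library on each side.

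Barcodes that met the cell cycle minimums but had no Ptprc UMI were in no main comparison. They were counted only in the alternative without the Ptprc requirement. There were 18 in the Trem2-/- library and 17 in the Trem2+/+ library. At least 2 UMIs of endothelial markers were found in 14 of the 18 (77.8%) and in 2 of the 17 (11.8%), and at least 2 UMIs of T cell markers in 0 and 7.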

How the results depend on the processing

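The proliferating share stayed within its interval in 11 of 11 alternatives, with log2 ratios from -0.24 to 0.04. Type 1 dendritic cells kept the highest proliferating share against T cells and C1qa cells in every alternative. Their log2 ratio to T cells in the Trem2-/- library was 1.67 with the rule minimums halved and 1.55 after thinning to 2000 UMIs, and their ratio to C1qa cells in the Trem2+/+ library was 3.79 after thinning. Thinning also gave -0.83 for the Xcr1/Clec9a, 0.76 for the C1qa and -0.13 for the unmarked share of members, and -0.92 for the proliferating share within Xcr1/Clec9a cells. The S to G2/M difference was -0.78 in unmarked members with the minimums doubled. It was 0.030 in Cd3e, 1.04 in Xcr1/Clec9a and 1.84 in C1qa members without the 5% highest doublet scores. Without the deepest member of each class it was 0.63 in all, 1.03 in Xcr1/Clec9a, 1.08 in C1qa and -1.0 in unmarked members, and without Foxp3 members 0.72 in Cd3e members. Leaving out the deepest members, Foxp3 members or members under 2000 UMIs was chosen after seeing the data. Over all members 215 genes were at least 1.5-fold higher and 157 lower. As a mean over cells these were 659 and 394, and with classes weighted equally 343 were higher. Directions turned for Apoe in C1qa members (0.051, minimums doubled), for MHC class II genes in Cd3e members (0.29) and lipid-associated genes in C1qa members (0.10) without the highest doublet scores, and, as a mean over cells, for S100a9 in all members (-0.81), Il2ra (0.76) and Myc (0.18) in Cd3e members and S genes in C1qa members (-0.044). Values under 1.5-fold also changed sign: Gpnmb in C1qa members from -0.24 to 0.12 and the G2/M median of unmarked members from 0.057 to -0.40, both as a mean over cells, and the S median of Cd3e members from 0.065 to -0.068 without the highest doublet scores. The cause was not tested. Of 300 values for named genes, 58 moved outside their interval and 4 turned. No paired analysis was possible because each group has 1 library. For the same reason no replicate could be left out. With 150 and 166 members, and 18 to 46 in each larger class, a single deep cell can carry a gene, and depth limits which members have a lineage.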
